A study of Mus musculus with 23 samples.

Results

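Immediate early genes were followed in mouse embryonic stem cells (ESCs) through 10 members chosen by name, Fos, Fosb, Jun, Junb, Atf3, Egr1, Egr2, Ier2, Ier3 and Myc. These are 10 of the 23369 gene names in the deposited RNA-seq tables, each with 1 row. The cells were 1 line, MS12 KDM2Bfl/fl, at passages 10 to 20, in which loxP sites flank the exon for the ZF-CxxC domain on both copies of Kdm2b and tamoxifen switches on a Cre recombinase. The 3 samples labelled untreated and the 3 labelled tamoxifen (800 nM, 72 hr) therefore share the floxed alleles and the Cre, and no sample without Cre was treated with the drug. The text of the series gives the dose as 800 µM. All cells grew in serum and leukemia inhibitory factor on mouse fibroblast feeders, which were left out of the last plating. The sequenced RNA was polyadenylated and the libraries were directional. Values are FPKM, fragment numbers corrected for gene length and for the size of the library, so levels of different genes can be set side by side. Groups follow what each sample is labelled. The table names give the opposite reading for all 6 samples, under which every difference below keeps its size and p and turns its sign.

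Immediate early genes are transcribed within minutes of a stimulus such as serum, a growth factor or stress, from factors already present in the cell. Kinase cascades (ERK, JNK and p38) phosphorylate the ternary complex factors that sit with SRF on CArG boxes, and CREB and ATF1 on cAMP response elements. Many of the products are transcription factors with short-lived RNA and protein: FOS and JUN proteins pair as AP-1, EGR proteins bind GC-rich sites, and MYC pairs with MAX. In ESCs LIF and serum both feed these cascades.

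The promoters of Fos, Fosb, Junb, Atf3 and Egr2 are shown because they are the 5 of the 7 members found in the RefSeq promoter table (GRCm38.p6) that hold the cAMP response half-site TGACG. Egr1, Ier2 and Myc had no entry. Each line gives the 200 bases before a transcription start on the coding strand, with half-sites (TGACG, or CGTCA where it lies on the other strand) and matches to the SRF CArG box in capitals.
Fos, chr12:85473690-85473889, plus strand: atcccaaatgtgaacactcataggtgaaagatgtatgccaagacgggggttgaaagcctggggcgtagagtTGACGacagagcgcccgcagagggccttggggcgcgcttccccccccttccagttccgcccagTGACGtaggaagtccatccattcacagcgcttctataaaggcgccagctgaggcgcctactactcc
Fosb, chr7:19310046-19310245, minus strand: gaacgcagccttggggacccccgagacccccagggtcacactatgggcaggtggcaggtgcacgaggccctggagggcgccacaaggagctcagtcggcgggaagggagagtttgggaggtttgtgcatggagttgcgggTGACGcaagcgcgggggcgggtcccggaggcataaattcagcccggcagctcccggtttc
Junb, chr8:84978749-84978948, minus strand: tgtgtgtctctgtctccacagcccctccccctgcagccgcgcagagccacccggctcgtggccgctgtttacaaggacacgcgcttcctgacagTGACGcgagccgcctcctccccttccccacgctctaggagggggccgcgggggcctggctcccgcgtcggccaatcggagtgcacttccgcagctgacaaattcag
Atf3, chr1:191183334-191183533, minus strand: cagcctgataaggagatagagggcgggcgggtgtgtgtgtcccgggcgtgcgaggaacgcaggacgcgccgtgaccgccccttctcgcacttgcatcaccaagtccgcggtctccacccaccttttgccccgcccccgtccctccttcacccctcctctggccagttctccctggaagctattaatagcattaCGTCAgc
Egr2, chr10:67537669-67537868, plus strand, the third of 5 listed starts: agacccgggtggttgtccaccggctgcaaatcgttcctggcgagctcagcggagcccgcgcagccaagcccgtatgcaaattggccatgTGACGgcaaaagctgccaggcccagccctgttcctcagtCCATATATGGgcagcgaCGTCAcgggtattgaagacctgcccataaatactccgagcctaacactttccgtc
In the Fos promoter the half-sites lie 129 to 125 and 66 to 62 bases before the start, and a TATAAA lies 33 to 28 bases before it. The half-site of Fosb lies 60 to 56 bases before the start, that of Junb 106 to 102 and that of Atf3 7 to 3. In the Egr2 promoter a CArG box at 72 to 63 lies between half-sites at 111 to 107 and 55 to 51. Over 250 bases before the start and on both strands, 17.8% of 32851 RefSeq promoters hold TGACG, 1.47% a CArG box, 1.55% the full element TGACGTCA (which contains TGACG), 4.46% the AP-1 site TGACTCA, 33.8% CCAAT and 12.4% TATAAA. Of the 7 members, 5 hold TGACG, 1 (Egr2) a CArG box, 4 CCAAT (Jun, Junb, Egr2 and Ier3), 1 (Fos) TATAAA, and 0 hold TGACGTCA or TGACTCA. A member was counted if any of its listed starts had the match, and Egr2 has 5 starts. The shares are over single promoters, so counts and shares are not on the same footing. Sites more than 250 bases before the start were not searched, so a member without a match here may have one farther away. These are matches of letters and were not tested as binding sites.

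Some facts of the libraries bear on the values. Read counts are not in the tables, and single-fragment steps in 211 to 261 low genes put the other 5 samples at 0.654 to 0.954 of the depth of untreated replicate 1. The share of total FPKM in loci under 300 bp followed the replicate number, at 23.9% and 25.6% in replicate 1, 67.7% and 61.6% in replicate 2 and 54.7% and 42.3% in replicate 3. Kdm2b itself was listed at 27.0, 21.5 and 27.7 FPKM in the untreated samples and at 19.9, 21.9 and 25.0 in the tamoxifen samples (log2 difference -0.19, adjusted p = 0.999). A value over the whole gene does not resolve the floxed exon and so does not check the labels. ESC markers were expressed in every sample. In the unpaired test between groups described below 0 of 10 passed, beside 0.0308% of all genes tested. Their levels differed widely, with Pou5f1 at 369 to 832 FPKM and Tbx3, the lowest of the 10, at 7.03 to 12.7. The 15 feeder fibroblast markers summed to 131, 222 and 311 FPKM in the untreated samples and 227, 189 and 202 in the tamoxifen samples. Of these, Col1a1, the main fibrillar collagen, was at 15.6 to 40.3 FPKM, Tagln, a smooth muscle and fibroblast actin-binding protein, at 59.2 to 147 and Acta2, smooth muscle actin, at 14.6 to 66.9, while Lum was at 0 to 0.202. Tagln alone gave 73.2, 74.9 and 147 FPKM of the untreated sums and 137, 59.2 and 80.1 of the tamoxifen sums. Col1a1, Col1a2, Col3a1, Col5a2, Thy1, Dcn, Fbn1, Lox and Prrx1 were lowest in both replicate 1 samples. For Col1a1 these were at 15.6 and 19.3 FPKM, against 29.7 to 40.3 in the others. Tagln, Acta2, Postn, Pdgfrb and Twist2 were not lowest there, and Lum was near 0.

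The first question was whether the members differed between the groups. On log2(FPKM + 0.1), 8 of the 9 members tested had a lower mean in the tamoxifen samples, and 0 of 9 passed the limma test at an adjusted p of 0.05 when the 6 samples were treated as unpaired. Over all 12997 genes tested 4 passed, or 0.0308%, and 623 had an unadjusted p under 0.05. The median difference was -0.71 over the 9 members and -0.02 over all genes, of which 52.7% were negative. Egr2 was too low to be tested, since a gene had to reach 0.5 FPKM in at least 3 samples. The labels give replicate numbers without saying that the samples were separate cultures, and the study's methods call them biological triplicates.

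Over all genes, samples of equal replicate number departed from their group means in the same way, so the numbers were taken as pairs, and the limma fit was repeated with the number as a block. Under it Junb, Egr1, Atf3 and Myc passed, 4 of 9 members, all lower in the tamoxifen samples. Of all genes 6.06% passed as lower and 4.33% as higher, and 0 members passed as higher. Without replicate 2 the count was 0 of 9, with adjusted p of 0.0615 for Junb, 0.171 for Egr1, 0.0883 for Atf3 and 0.0623 for Myc. Calls fell over all genes too in that fit, to 43 lower and 36 higher, against 787 and 563 with all samples. The log2 differences without replicate 2 were -0.82 for Junb, -0.92 for Egr1, -0.92 for Atf3 and -0.89 for Myc. Without replicate 1 or without replicate 3 the count was 3, with Atf3 lost each time, beside 1011 and 478 lower over all genes. Scaled to TPM with the block, 2 members passed as lower (Egr1, adjusted p = 0.00304, and Myc, adjusted p = 0.0118), and over all genes 336 were lower and 430 higher, against 787 and 563 without that scaling. The same 4 members were also lower in each of the 3 replicate numbers, as were 28.2% of all genes tested. In bulk RNA, fewer cells with a transcript and less of it per cell cannot be told apart.

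**Figure D1:**
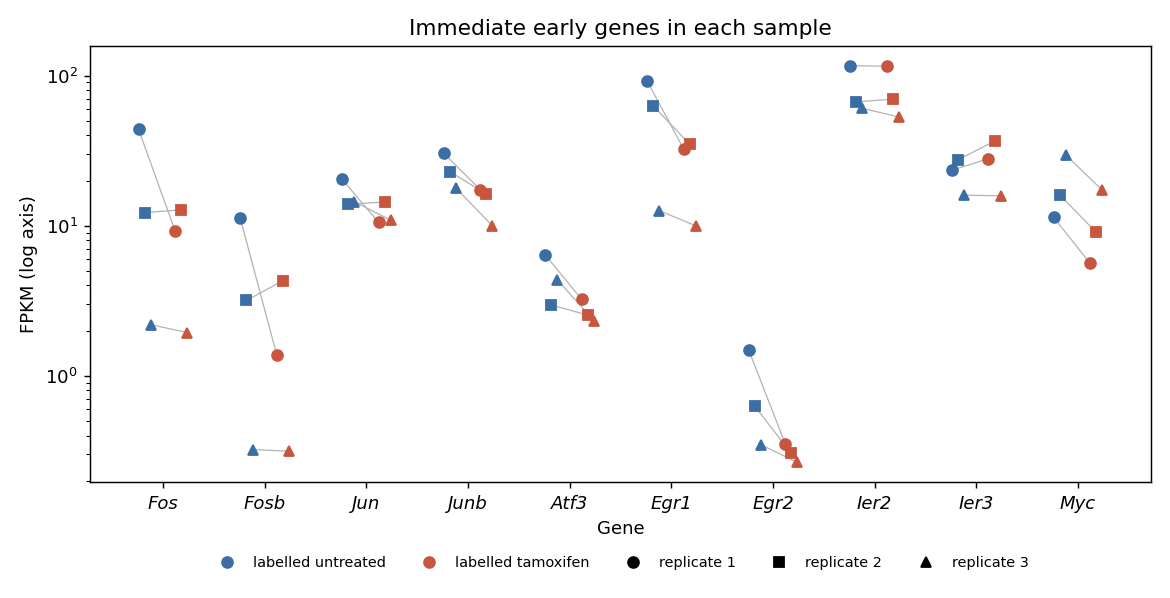
FPKM of the 10 members in each of the 6 samples on a log axis, with blue for labelled untreated, red for labelled tamoxifen, a marker shape for each replicate number and a line joining the samples of one number. Fos, Fosb and Egr1 are spread more widely between replicate numbers than between groups, and the groups of Junb do not overlap.

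Fos (mm9 chr12:86814851-86818219, plus strand) encodes the AP-1 subunit with which the class is most often identified. It was at 43.8, 12.2 and 2.19 FPKM in untreated replicates 1, 2 and 3 and at 9.18, 12.8 and 1.94 in tamoxifen replicates 1, 2 and 3. The groups overlap, and untreated replicate 1 stands alone above the rest. The means were 19.4 ± 21.7 and 7.96 ± 5.51 FPKM (SD, n = 3 each), a log2 difference of -0.78 with SE 1.03 (adjusted p = 0.999) and, with the block, SE 0.39 (adjusted p = 0.22, 95% interval -1.69 to 0.12). Within replicate numbers the tamoxifen sample was at 0.21, 1.04 and 0.886 times the untreated one. Without untreated replicate 1 the log2 difference was 0.23, and without tamoxifen replicate 3 it was 0.025.

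Fosb (mm9 chr7:19888045-19895394, minus strand) encodes a close relative of FOS that also pairs with JUN proteins. It was at 11.2, 3.18 and 0.323 FPKM in the untreated and 1.37, 4.31 and 0.315 in the tamoxifen samples. Its pattern over the samples repeats that of Fos, with untreated replicate 1 highest and both replicate 3 samples lowest. The mean was 4.9 ± 5.63 against 2.0 ± 2.07 FPKM (SD, n = 3 each), and the log2 difference was -0.85 with SE 1.19 (adjusted p = 0.999) or 0.56 with the block (adjusted p = 0.343, 95% interval -2.16 to 0.46). The tamoxifen to untreated ratio was 0.122 in replicate 1, 1.35 in replicate 2 and 0.975 in replicate 3. Without untreated replicate 1 the log2 difference was 0.24, without tamoxifen replicate 3 it was 0.024, and without both samples of replicate 1 it was 0.20.

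Jun (mm9 chr4:94715727-94718913, minus strand) encodes the AP-1 partner that can also pair with itself. Its FPKM was 20.4, 13.9 and 14.5 in the untreated samples and 10.5, 14.4 and 10.9 in the tamoxifen samples. The groups overlap through replicate 2, whose samples are nearly equal. Means were 16.3 ± 3.61 and 11.9 ± 2.13 FPKM (SD, n = 3 each), and the log2 difference of -0.44 did not pass without the block (adjusted p = 0.999) or with it (adjusted p = 0.147, 95% interval -0.85 to -0.03).

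Junb (mm9 chr8:87500808-87502647, minus strand, a gene of 1 exon) encodes a JUN protein that transactivates more weakly than JUN. It was at 30.5, 23.0 and 17.9 FPKM in the untreated and 17.4, 16.3 and 9.99 in the tamoxifen samples. Junb is the single member of which every tamoxifen sample lay below every untreated one, a pattern held by 5.4% of all genes tested, and the gap between 17.9 and 17.4 is small. The means were 23.8 ± 6.35 and 14.6 ± 4.0 FPKM (SD, n = 3 each), with a log2 difference of -0.71 (SE 0.29, adjusted p = 0.956). With the block Junb fell (SE 0.11, adjusted p = 0.0111, 95% interval -0.96 to -0.46), and the ratios were 0.572, 0.709 and 0.56 in replicates 1, 2 and 3. The adjusted p with the block was 0.063 when samples were scaled to TPM and 0.0615 without replicate 2.

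Atf3 (mm9 chr1:192994176-193007212, minus strand) encodes a stress-induced member of the ATF/CREB family that also pairs with JUN proteins. Its levels were 6.38, 2.96 and 4.35 FPKM in the untreated and 3.23, 2.54 and 2.33 in the tamoxifen samples. Only tamoxifen replicate 1 lies above the lowest untreated sample. The mean was 4.57 ± 1.72 against 2.7 ± 0.471 FPKM (SD, n = 3 each), a log2 difference of -0.69 (SE 0.32, adjusted p = 0.999). Atf3 fell with the block (SE 0.17, adjusted p = 0.0488, 95% interval -1.09 to -0.28), just inside the threshold, and the call was lost with the block under quantile normalization (adjusted p = 0.0717), median-ratio scaling (0.0552), scaling to TPM (0.199) and no filter on low values (0.118), and without any one replicate number (0.0645, 0.0883 and 0.148 without 1, 2 and 3).

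Egr1 encodes a zinc finger factor induced by ERK signalling. It was at 92.7, 63.1 and 12.6 FPKM in the untreated and 32.6, 35.0 and 10.0 in the tamoxifen samples. Both replicate 3 samples are far below the other 4, and within each number the tamoxifen sample is the lower one, at 0.351, 0.554 and 0.793 times the untreated sample. The means were 56.1 ± 40.5 and 25.8 ± 13.8 FPKM (SD, n = 3 each), with a log2 difference of -0.90 (SE 0.74, adjusted p = 0.999). With the block Egr1 fell (SE 0.20, adjusted p = 0.0308, 95% interval -1.35 to -0.44). The call with the block was lost under median-ratio scaling (adjusted p = 0.0514), robust variance moderation (0.113) and no filter on low values (0.0915), and without replicate 2 (0.171).

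Egr2 (mm9 chr10:67000617-67004936, plus strand) encodes a related factor best known from hindbrain and Schwann cells. It was at 1.5, 0.629 and 0.348 FPKM in the untreated and 0.354, 0.304 and 0.265 in the tamoxifen samples, with the intervals given by the authors running from 1.18 to 1.79 in untreated replicate 1 and from 0.132 to 0.397 in tamoxifen replicate 3. The tamoxifen sample was lower in each replicate number, while untreated replicate 3 lay just under tamoxifen replicate 1. With no filter on low values the log2 difference was -0.99, with an adjusted p of 0.949, or 0.163 with the block.

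Ier2 (mm9 chr8:87185230-87186751, minus strand, 1 exon) encodes a small nuclear protein. It was the most abundant member on average, at 116, 66.8 and 60.5 FPKM in the untreated and 116, 69.7 and 53.0 in the tamoxifen samples. The samples of one replicate number are nearly equal, with tamoxifen to untreated ratios of 0.994, 1.04 and 0.875. The means of 81.2 ± 30.5 and 79.4 ± 32.4 FPKM (SD, n = 3 each) differed by -0.05 on the log2 scale (SE 0.36, adjusted p = 1), and with the block the 95% interval ran from -0.27 to 0.17 (adjusted p = 0.768). The sign of this difference turned with scaling to TPM (0.054) and without untreated replicate 1 (0.24), tamoxifen replicate 2 (0.009), tamoxifen replicate 3 (0.21) or both samples of replicate 3 (0.026).

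Ier3 (mm9 chr17:35958658-35959856, plus strand) encodes a stress-inducible protein that acts on apoptosis and ERK signalling. It was at 23.4, 27.5 and 16.0 FPKM in the untreated and 28.0, 36.6 and 15.8 in the tamoxifen samples, and was the single tested member with a higher mean after tamoxifen. The means were 22.3 ± 5.84 and 26.8 ± 10.4 FPKM (SD, n = 3 each), with a log2 difference of 0.22 (SE 0.34, adjusted p = 0.999; with the block adjusted p = 0.232, 95% interval -0.04 to 0.48). Without untreated replicate 3 it was -0.004, and without tamoxifen replicate 2 it was -0.05.

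Myc (mm9 chr15:61816896-61821916, plus strand) encodes the bHLH factor that drives growth genes and, in ESCs, acts downstream of LIF. It was at 11.4, 16.1 and 29.6 FPKM in the untreated and 5.62, 9.04 and 17.3 in the tamoxifen samples. The groups overlap, since tamoxifen replicate 3 lies above untreated replicates 1 and 2, but the ratios within numbers were close to each other, at 0.493, 0.562 and 0.582. The means were 19.0 ± 9.46 and 10.6 ± 5.98 FPKM (SD, n = 3 each), a log2 difference of -0.87 with SE 0.46 (adjusted p = 0.999). With the block Myc fell with SE 0.10 (adjusted p = 0.00489, 95% interval -1.11 to -0.63), the smallest adjusted p among the members. It passed with every alternative added to the block except leaving out replicate 2 (adjusted p = 0.0623).

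**Figure D2:**
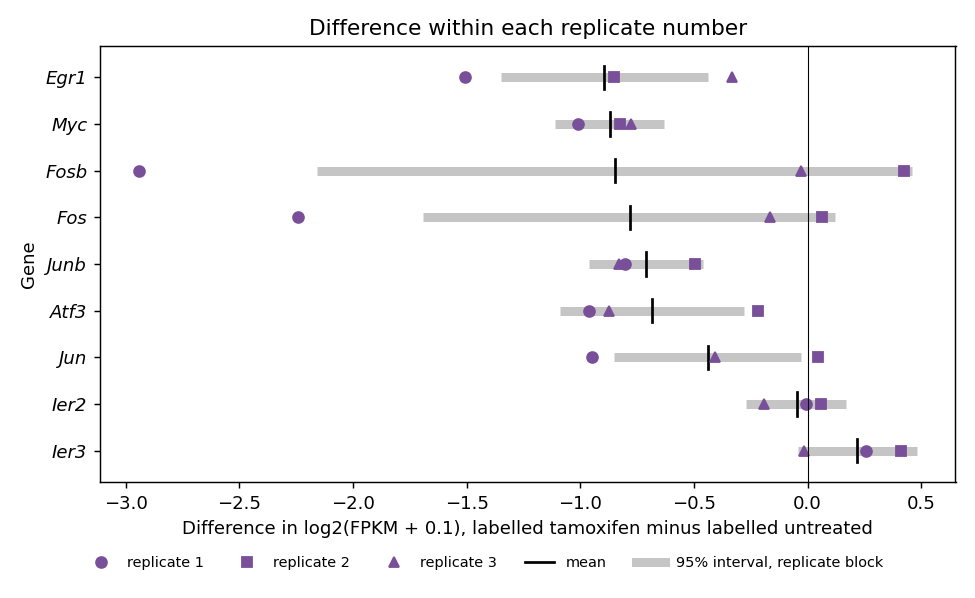
Difference in log2(FPKM + 0.1), labelled tamoxifen minus labelled untreated, within each replicate number for the 9 members tested, with the mean as a black bar and the 95% interval of the replicate block fit in grey. For Fos and Fosb replicate 1 lies at -2.24 and -2.94 with the others near 0, whereas the 3 values of Myc lie between -1.01 and -0.78.

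The second question was how much the members varied between replicate numbers, whatever the group. In a limma test of the 3 numbers with the group as a term, 8 of 9 members passed (all but Jun), beside 62.8% of all genes tested. Atf3 lay just inside the threshold (adjusted p = 0.0484) and outside it with median-ratio scaling (0.0715) or no variance trend (0.07). The measure of size was the highest minus the lowest of the 3 replicate means on log2(FPKM + 0.1), with a median of 1.03 over the 9 members and 0.63 over all genes. The wide spread did not extend to the 25 tested immediate early genes outside the members. Their median was 0.44, below that of all genes, and 11 of 25 passed. Fosb had a range of 3.28, or 9.72-fold (adjusted p = 0.00824), and Fos one of 3.22, or 9.32-fold (adjusted p = 0.00339), each above that of 99.3% of the genes tested. Egr1, the most abundant of the 3 members with the widest ranges, had one of 2.28, or 4.86-fold (adjusted p = 0.00176), above 98.7% of genes. Below these 3 genes, Myc had a range of 1.49, or 2.8-fold (adjusted p = 0.00145), above 95% of genes. Jun was the steadiest of the members, with a range of 0.22 (adjusted p = 0.608), above 7.2%.

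The highest replicate number was not the same for all members. Mean FPKM of Fos was 26.5, 12.5 and 2.07 in replicates 1, 2 and 3, that of Fosb 6.28, 3.74 and 0.319 and that of Egr1 62.6, 49.0 and 11.3. Myc was instead highest in replicate 3, at 8.51, 12.6 and 23.4. Both samples of replicate 3 lay below the other 4 for 5 of 9 members, Fos, Fosb, Egr1, Ier2 and Ier3, and for 12% of all genes tested. Replicates 1 and 2 and the opposite direction were not counted in this way, so this is a description and not a test. The untreated samples alone covered 20.0-fold for Fos, 34.6-fold for Fosb and 7.35-fold for Egr1, and the tamoxifen samples alone 6.57-fold, 13.7-fold and 3.5-fold. The intervals that the authors' tables give each value cover error within a library, not between samples. Of the 60 member values 17 lay above their own upper bound, among them all 12 of Ier2 and Ier3. Over all rows that share was 7.88% to 9.6% per sample. The share of total FPKM in loci under 300 bp also differed between the numbers, as given above, and its part in the spread between numbers was not tested.

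**Figure D3:**
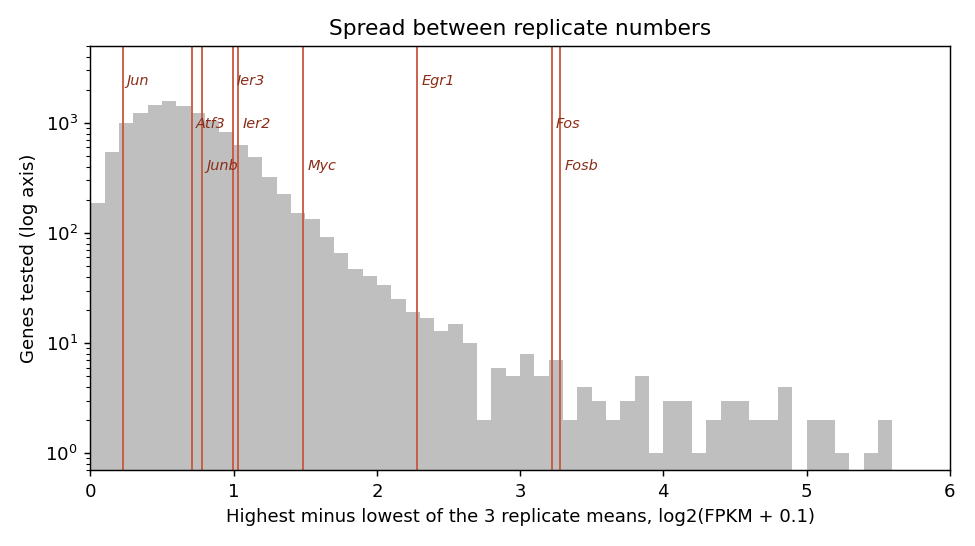
Number of genes tested (log axis) by the highest minus the lowest of their 3 replicate means on log2(FPKM + 0.1), with a red line for each member tested and 32 genes with a spread over 6 not drawn. Fos and Fosb lie in the far tail at 3.22 and 3.28, Egr1 at 2.28, and Jun near the lower end at 0.22.

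Immediate early genes outside the 10 members were taken from a list of 30, of which 25 were tested. Without the block 0 of 25 passed. With the block 8 passed as lower and 0 as higher, beside the 6.06% and 4.33% of all genes, and the median difference was -0.34. Without replicate 2 the count with the block was 4, in a fit with 43 lower over all genes tested. Plk2, a polo-like kinase, had the smallest adjusted p, and was at 35.3, 29.7 and 53.8 FPKM in the untreated and 18.0, 15.7 and 23.5 in the tamoxifen samples (log2 difference -1.02, adjusted p with the block = 0.00344). Its groups do not overlap. Cyr61 and Ctgf, matricellular proteins induced by SRF and YAP, fell by 0.90 and 0.76 on the log2 scale (adjusted p with the block 0.004 and 0.00519). Cyr61 was the most abundant of the 8, at 134, 143 and 93.1 against 64.9, 79.5 and 53.9 FPKM. Btg2, an antiproliferative gene, fell by 0.91 (adjusted p = 0.00418) and Plk3, another polo-like kinase, by 0.84 (adjusted p = 0.00535). The mRNA decay factors Zfp36 and Zfp36l1 fell by 0.76 and 0.62 (adjusted p = 0.0133 and 0.0134) and the zinc finger gene Klf6 by 0.51 (adjusted p = 0.0275). Of the most abundant genes of the list, the survival gene Mcl1 was at 153 to 195 and 145 to 161 FPKM (log2 difference -0.18, adjusted p with the block = 0.237). The kinase gene Sgk1 was at 90.6 to 104 and 93.2 to 120 (0.09, adjusted p with the block = 0.577).

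**Figure D4:**
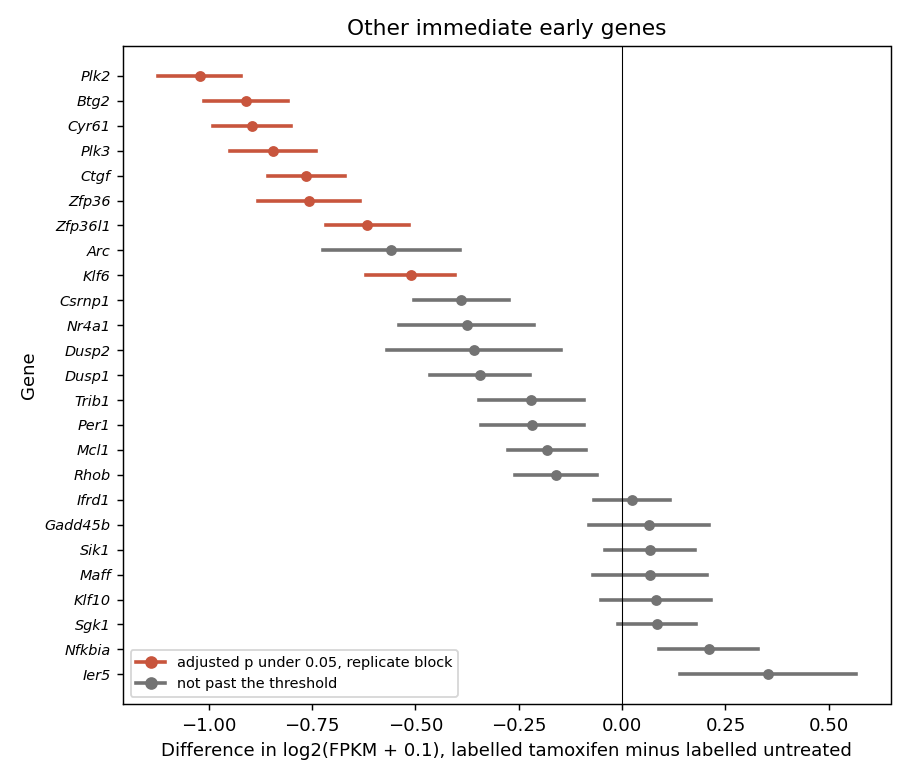
Difference in log2(FPKM + 0.1), labelled tamoxifen minus labelled untreated, with its standard error in the replicate block fit for the 25 tested immediate early genes outside the members. The 8 genes with an adjusted p under 0.05 are in red and all lie below 0, from Plk2 at -1.02 to Klf6 at -0.51.

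The remaining AP-1 genes gave 0 calls among 5 tested with or without the block (median difference -0.27). With the block 6.06% of all genes passed as lower and 4.33% as higher, so 0 of 5 is near that background. Jund, the JUN gene that is transcribed in unstimulated cells, was at 79.1, 43.7 and 37.7 FPKM in the untreated and 59.6, 43.1 and 28.9 in the tamoxifen samples (log2 difference -0.27, adjusted p with the block = 0.146). Like Fos, its mean over both groups was highest in replicate 1 and lowest in replicate 3, with a smaller range (1.05). Fosl2, a FOS relative, was at 3.09 to 7.05 and 2.73 to 3.53 FPKM (adjusted p with the block = 0.0754), and Jdp2, a repressor of AP-1, at 2.17 to 4.5 and 2.28 to 4.22 (adjusted p with the block = 0.674). Fosl1 was listed at 0, 2.28 and 7.14 FPKM in the untreated and 0, 0 and 2.51 in the tamoxifen samples, and no fold is given.

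In the Myc network 0 of 9 tested genes passed with or without the block (median difference -0.09). With the block 6.06% of all genes passed as lower and 4.33% as higher, so 0 of 9 is near that background. Mycn, the other MYC gene that ESCs express, was at 44.9, 37.2 and 77.1 FPKM in the untreated and 50.4, 55.3 and 88.3 in the tamoxifen samples, above Myc in each sample (log2 difference 0.31, adjusted p with the block = 0.111). Max, the shared partner, was at 32.4 to 45.2 and 37.3 to 44.7 FPKM, and the MAX-like partner Mlx at 26.1 to 34.4 and 29.8 to 36.5. The EGR corepressor genes Nab1 and Nab2 did not pass either (adjusted p with the block 0.336 and 0.121), at 2.24 to 4.0 and 1.79 to 3.56 FPKM for Nab1 and 4.21 to 7.96 and 2.86 to 4.41 for Nab2.

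Among 17 kinases and transcription factors that act upstream of the class, 1 passed with the block, as higher, beside 4.33% of all genes (median difference 0.08). A count of 1 of 17 is near that background. This was Mapk3, which encodes ERK1, at 47.7, 26.0 and 27.8 FPKM in the untreated and 62.6, 40.5 and 38.4 in the tamoxifen samples (log2 difference 0.50, adjusted p with the block = 0.0211). The RSK gene Rps6ka1 was at 28.8 to 52.1 FPKM in the untreated and 37.8 to 50.5 in the tamoxifen samples (0.16, adjusted p with the block = 0.367). These are RNA levels, and the activity of the kinases was not measured.

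Of 9 heat shock genes 2 passed with the block, both lower, beside 6.06% of all genes (median difference 0.04). They are the stress-inducible Hspa1a, at 3.2, 2.89 and 1.9 FPKM in the untreated and 0.664, 1.47 and 1.1 in the tamoxifen samples (log2 difference -1.26, adjusted p with the block = 0.0295), and Hspa1b, at 4.33, 5.15 and 3.76 against 1.22, 2.67 and 1.92 (-1.20, adjusted p with the block = 0.0131). The groups of both genes do not overlap. They are nearly identical copies that can share reads, so they do not count as separate observations. The abundant chaperones Hspa8, Hsp90aa1 and Hspd1 differed by 0.22, 0.13 and 0.23 on the log2 scale and did not pass (adjusted p with the block 0.21, 0.459 and 0.148). Feeder fibroblast markers gave 0 calls among 14 tested with or without the block (median difference -0.04), and ESC markers 0 among 10 (median 0.17). In the test of the replicate numbers 9 of the 14 feeder markers and 6 of the 10 ESC markers passed, beside 62.8% of all genes. The median range was 1.255 for the feeder markers and 0.505 for the ESC markers, against 0.632 over all genes. The part of feeder RNA in the spread between numbers was not tested.

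As a description over the 6 samples, the mean log2(FPKM + 0.1) of the 9 tested members was 4.71, 4.02 and 3.18 in the untreated and 3.58, 3.86 and 2.78 in the tamoxifen samples. The genes outside the members closest to it were Pik3cd (Pearson's r = 0.99), which encodes a catalytic subunit of PI3 kinase, Grk6 (0.986), Wnk4 (0.986), Rtn4r (0.985) and Mast1 (0.983). Pik3cd was at 8.55, 6.85 and 5.89 FPKM in the untreated and 6.24, 6.72 and 4.95 in the tamoxifen samples. The 6 points share 3 replicate numbers, and these genes were picked as the highest over the tested genes.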

How the data were processed

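RNA-seq of 6 samples was used, 3 per group. The authors sequenced paired-end 51 bp reads, aligned them to mm9 with Tophat2 and quantified refGene models (cuffdiff 2.1.1 in their methods). The deposited tables hold 1 FPKM per row and sample with an interval and a status (23874 rows). ChIP-seq samples were not analysed here. Groups were taken from the sample labels, against the names of the tables. The members and gene lists were chosen with earlier results of these data known.

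FPKM were summed by gene name and 6 gene names with a failed status were left out. Genes with at least 0.5 FPKM in at least 3 samples were tested (12997). The test was limma 3.58.1 (R 4.3.3) with a mean-variance trend, run on values transformed as log2(FPKM + 0.1), with Benjamini-Hochberg adjustment over all genes and a threshold of 0.05. A difference on this scale understates the change of low genes. Main differences are without pairing. Deviations from the group means correlated at 0.544, 0.605 and 0.506 for equal replicate numbers and at -0.379 to -0.105 for unequal ones, so the numbers pair the samples and the fit with the replicate block is given beside each call it changes. The difference between numbers was tested by an F test with the group as a term. The fits were also run on values simulated with normal errors, which cannot check that assumption on these data.

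Named were all members, Kdm2b, of each other list the genes past the threshold (at most 8) and the 3 with the highest mean, and the 5 genes most correlated with the members' mean. One gene that this rule names is not reported here. Fosl1, Tbx3, the exon counts and the feeder markers other than Col1a1, Tagln and Acta2 were named after the values were seen. Alternatives were pseudocounts of 1 and 0.01, scaling to TPM, median-ratio scaling, quantile normalization (also with the block), the highest row per gene, no filter, a minimum of 1 FPKM in each of the 6 samples, no trend in eBayes, and leaving out each sample or replicate number. Added after seeing the data were the block with a pseudocount of 1, median-ratio scaling, scaling to TPM, no filter, robust eBayes and each replicate number left out. Loci are those of the tables in mm9, with strand and exons from GENCODE (NCBIM37). Promoters are from RefSeq (GRCm38.p6). Python 3.11.15 with pandas 2.3.3, numpy 2.4.6, scipy 1.17.1 and matplotlib 3.10.9 was used for the rest.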

Additional observations from a re-analysis of the deposited data

How the results depend on the processing

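Over all genes, the unpaired fit gave 3 higher and 1 lower. The lower count was 0 with a pseudocount of 1, and both were 0 when 1 FPKM was required in all 6 samples. The replicate block gave 563 higher and 787 lower genes, with 4 members and 8 other immediate early genes lower. In the same order, the block gave 558, 586, 3 and 8 with quantile normalization, 659, 931, 4 and 8 with a pseudocount of 1, 461, 629, 2 and 8 with median-ratio scaling, 430, 336, 2 and 6 with scaling to TPM, 974, 1285, 3 and 11 with robust eBayes, and 167, 241, 2 and 7 with no filter. Scaling to TPM moved the median over all genes from -0.02 to 0.08 and the split of calls from mostly lower to mostly higher. Leaving out samples or replicate numbers without the block gave 0 to 5 genes higher and 0 to 7 lower. With and without the block together, it gave 0 to 744 genes higher, 0 to 1011 lower, 0 to 3 members lower and 0 to 8 other immediate early genes lower. With the block and without replicate 2 there were 36 higher and 43 lower genes, without replicate 1 744 and 1011, and without replicate 3 359 and 478. Of the members' differences, that of Ier2 turned to 0.054 with scaling to TPM, with or without the block. With samples or replicate numbers left out, the log2 differences that changed sign ran from -1.90 to 0.23 for Fos, from -2.13 to 0.24 for Fosb, from -0.36 to 0.24 for Ier2 and from -0.048 to 0.55 for Ier3. With the block, Fosb turned to 0.199 without replicate 1 and Ier2 to 0.026 without replicate 3. The spread of Atf3 between replicate numbers no longer passed with median-ratio scaling (0.61, adjusted p = 0.0715) or without a trend (0.71, adjusted p = 0.07). The causes were not tested. With 3 samples per group, values without counts and a block that leaves few degrees of freedom, the members' calls rest on the pairing. The intervals given for Fos, Fosb, Ier2 and Ier3 include 0, and differences within them were not resolved. That of Jun, -0.85 to -0.03, lies below 0, but Jun did not pass after adjustment (adjusted p with the block = 0.147).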
